A study of Mus musculus with 2 samples.

Results

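Mbp, the gene for myelin basic protein, was followed isoform by isoform in long-read RNA sequencing of mouse hippocampus. Its members were all transcript models that the deposited quantification assigned to the gene, and each model's exon chain was read from the annotation of the same library. There were 51 Mbp models of 122607 mouse models in replicate 1 and 43 of 115971 in replicate 2, and Mbp was 1 of 18311 genes with reads in either library. The tissue, labelled a layer of hippocampus, was taken at 14 days of age from male B6CASTF1/J mice, which are F1 hybrids between C57BL/6J and CAST/EiJ. The study holds a single group of 2 libraries, biological replicates 1 and 2, each made from 2 µg of RNA of 3 pooled males, so no treatment or genotype was contrasted. The labels of each sample list different animals, but the text on the experiment gives the animals of replicate 1 in both cases, so differences between the libraries may be technical. Mouse models held 821324 reads in replicate 1 and 743862 reads in replicate 2, and levels are given as reads per 1000000 mouse reads of the library (CPM).

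Myelin basic protein is made by oligodendrocytes, where it binds the cytoplasmic faces of the membrane and holds them together in compact myelin. Its mRNA is carried along the cell's processes and translated near the growing sheath. The gene has 2 groups of starts. The classic start lies in classic exon 1 and gives the myelin proteins, which differ by the inclusion of internal exons. The upstream start gives the Golli transcripts, named for genes of the oligodendrocyte lineage, whose products share sequence with classic myelin basic protein and are also made in neurons and cells of the immune system. Classic proteins that hold exon 2 can enter the nucleus and are prominent in young oligodendrocytes.

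On mm10, Mbp spans chromosome 18, 82475146 to 82585637, on the forward strand. GENCODE M21 lists 16 Mbp transcripts, of which 11 begin in classic exon 1 and 4 begin upstream. The first Golli start lies 79324 bases before the first classic start at 82554470. Classic exon 1 ends at 82554750. The internal exons are exon 2 (82561778 to 82561855, 78 bases), exon 3 (82572825 to 82572926, 102 bases), exon 4 (82575172 to 82575207, 36 bases), exon 5 (82575601 to 82575633, 33 bases) and exon 6 (82578936 to 82579058, 123 bases). All 5 lengths are multiples of 3, so each can be skipped with the reading frame kept. Exon 7 (82584112 to 82585637) holds the end of the coding region and the 3′ untranslated region. A long form of exon 5 begins at 82575535 and has 99 bases. The Golli exons are an untranslated first exon (82475146 to 82475394), a second exon (82500727 to 82500802), another exon (82522050 to 82522137) and an upstream extension of classic exon 1 that begins at 82554320.

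Mbp was among the most abundant genes of the tissue, and its level differed between the libraries. It held 3077 reads (3746 CPM) in replicate 1 and 1255 reads (1687 CPM) in replicate 2, a mean of 2717 ± 1456 CPM (SD, n = 2). By CPM it was the 7th of 16574 genes in replicate 1 and the 28th of 16351 genes in replicate 2. Replicate 1 stood 2.22-fold over replicate 2, a log2 ratio of 1.15 (Fisher's exact test on reads, two-sided, adjusted p = 2.87e-133 over 8875 genes). In that comparison 1.58% of genes were called in either direction and 0.834% were called higher in replicate 1. The test compares these libraries, not conditions, and its p covers counting error only. Fewer oligodendrocytes and less Mbp RNA per oligodendrocyte cannot be told apart in bulk tissue.

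Reads of spliced, full-length models made up most of the gene's reads. A read was counted as full length where its model ran from a classic or Golli first exon to exon 7 or to the Golli end after exon 1, genomic models left out. Annotated models carry the starts and ends of the catalogue, so for their reads this rests on the exon chain and the read ends were not seen. This held for 2671 of 3077 reads in replicate 1 (86.8%, with a Wilson 95% interval of 85.6% to 88.0%) and 1053 of 1255 reads in replicate 2 (83.9%, 81.8% to 85.8%), which averaged 85.4% ± 2.05 (SD, n = 2). Intervals cover counting error only, since amplified reads are not independent molecules. Annotated transcripts held 85.8% of Mbp reads in replicate 1 and 82.7% in replicate 2, against 72.1% and 70.5% over all known genes. Incomplete matches, which are models that hold only part of an annotated chain, made up 1.04% and 1.67% of Mbp reads, against 10.4% and 10.7% over all known genes. Models that the deposited class calls new combinations of known splice sites made up 0.390% and 0.558%, against 6.79% and 6.69% over all known genes. Many of these Mbp models held sites that GENCODE M21 lacks, and a new pair of its sites was joined in 0 and 1 reads. Models classed as having a new splice site made up 0.715% and 0.876%, against 4.26% and 4.24%, so this class does not hold every read with a site outside GENCODE M21. Gene by gene the contrast was smaller for these classes. Among the 1525 genes whose summed reads reached 200, the median share of annotated transcripts was 84.3%, against 84.9% for Mbp over both libraries, which ranked 742nd. The corresponding medians were 4.91% for incomplete matches, 1.61% for new combinations and 2.04% for new splice sites, against 1.22%, 0.439% and 0.762% for Mbp. These are descriptions without a test.

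Many annotated isoforms of Mbp were in use. Among the same 1525 genes, Mbp had 8 annotated transcripts with at least 10 reads, against a median of 1. By this count 1 gene had more, and 2 genes, Mbp included, had 8. The number that reach 10 reads can rise with a gene's reads. Among the 50 genes with at least 2000 reads, a limit chosen after seeing the data, the median was also 1, and 1 gene had more than Mbp. Reads were found for 13 of the 16 annotated Mbp transcripts, and for 12 of them in both libraries. Mbp-208, an early-ending Golli transcript, Mbp-213, annotated as a target of nonsense-mediated decay, and Mbp-214, a non-coding transcript that begins after exon 2, had 0 reads in both libraries. A count of 0 allows up to 3.65 CPM in replicate 1 and 4.03 CPM in replicate 2.

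**Figure D1:**
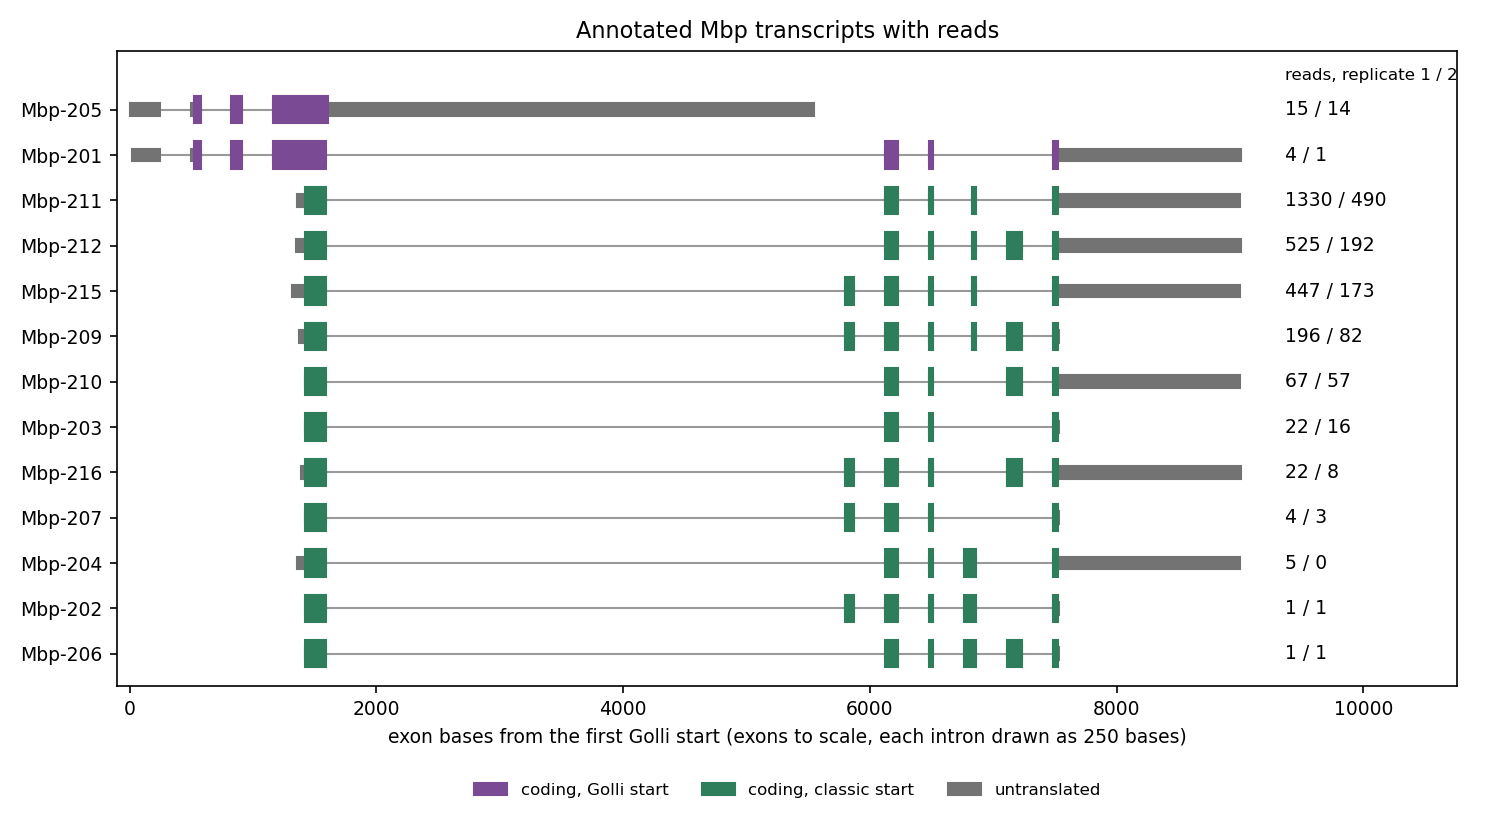
Structures of the 13 annotated Mbp transcripts with reads, Golli transcripts above classic ones, with exon lengths to scale on the x axis (bases), introns at a fixed width, coding parts as tall coloured boxes and untranslated parts as grey boxes. Numbers at the right are reads in replicate 1 and replicate 2; Mbp-211, which lacks exons 2 and 6, has the most, at 1330 and 490.

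The isoforms are first described by their annotated transcripts, whose reads follow. Mbp-211, which joins exons 1, 3, 4, 5 and 7, was the most abundant, with 1330 reads (1619 CPM) in replicate 1 and 490 reads (659 CPM) in replicate 2. Its coding region has 384 bases and encodes 128 residues with a predicted mass of 14.2 kDa, from the annotated sequence with its first methionine and no modification. It held 43.2% of all Mbp reads in replicate 1 and 39.0% in replicate 2.

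Mbp-212 adds exon 6 to this chain and encodes 169 residues (18.5 kDa). It had 525 reads (639 CPM) in replicate 1 and 192 reads (258 CPM) in replicate 2. Mbp-215 adds exon 2 in place of exon 6 and encodes 154 residues (17.2 kDa). It had 447 reads (544 CPM) in replicate 1 and 173 reads (233 CPM) in replicate 2. Mbp-209 holds all 7 classic exons and encodes 195 residues (21.5 kDa). It had 196 reads (239 CPM) in replicate 1 and 82 reads (110 CPM) in replicate 2. These 4 chains correspond to the main myelin basic proteins known from mouse brain, and their order by reads was the same in both libraries.

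Chains without exon 5 were rarer. Mbp-210 lacks exons 2 and 5 and encodes 158 residues (17.2 kDa), a mass that Mbp-215 nearly shares. It had 67 reads (81.6 CPM) in replicate 1 and 57 reads (76.6 CPM) in replicate 2. Mbp-203 lacks exons 2, 5 and 6 and encodes 117 residues (13.0 kDa), with 22 reads (26.8 CPM) in replicate 1 and 16 reads (21.5 CPM) in replicate 2. Mbp-216 lacks exon 5 alone and encodes 184 residues (20.3 kDa), with 22 reads in replicate 1 and 8 reads in replicate 2. Mbp-207, which lacks exons 5 and 6, had 4 reads in replicate 1 and 3 reads in replicate 2.

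The long form of exon 5 was close to absent. Mbp-204, which carries it without exons 2 and 6, had 5 reads in replicate 1 and 0 reads in replicate 2. Mbp-202 and Mbp-206, the other transcripts with this form, had 1 read each in both libraries. Over all models, the junction that leads into the long form was found in 8 reads of replicate 1 and 2 reads of replicate 2, against 2532 and 957 reads with the junction into the short form.

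**Figure D2:**
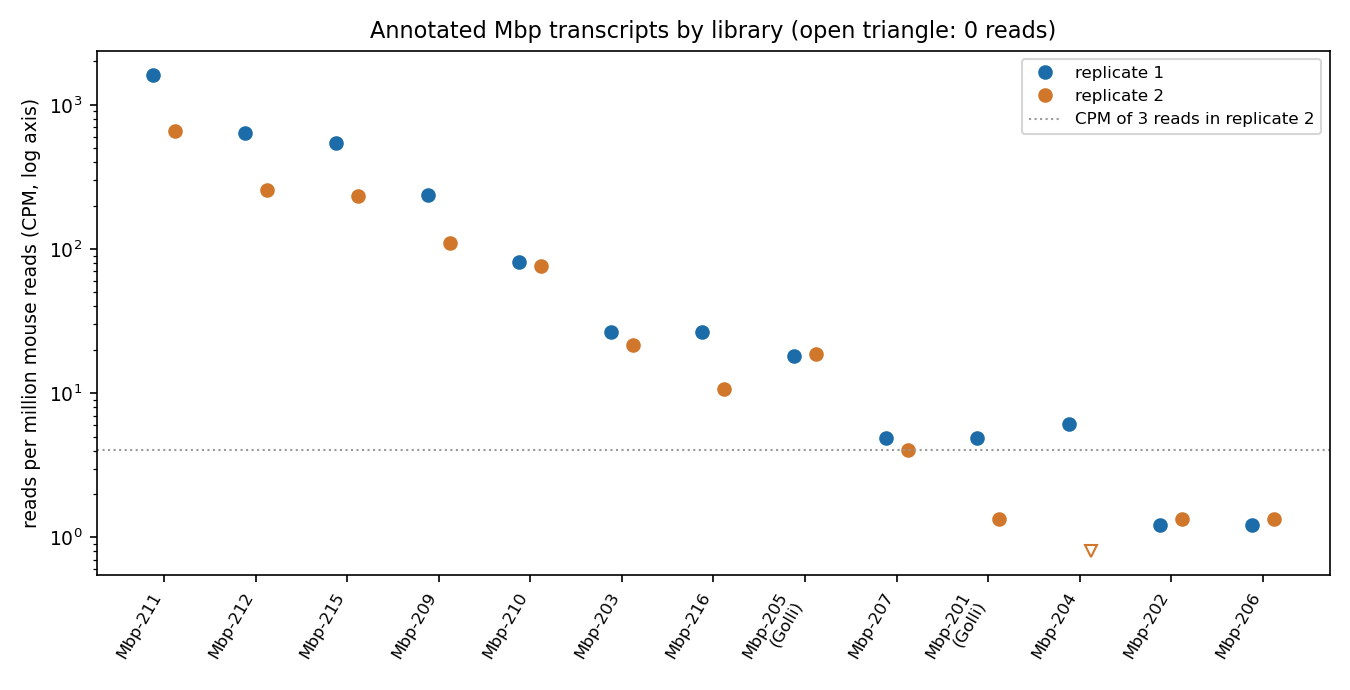
Levels of the 13 annotated Mbp transcripts with reads in replicate 1 (blue) and replicate 2 (orange), in CPM on a log axis, with transcripts ordered by their mean on the x axis. Replicate 1 lies above replicate 2 for the 4 leading transcripts, and the points nearly meet for Mbp-210 (81.6 and 76.6 CPM) and for the Golli transcript Mbp-205 (18.3 and 18.8 CPM).

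The Golli start was used in few Mbp reads. Models whose first exon lay upstream of the classic starts held 22 reads (26.8 CPM) in replicate 1 and 24 reads (32.3 CPM) in replicate 2, whereas models that began in classic exon 1 held 2660 reads (3239 CPM) and 1037 reads (1394 CPM). The Golli share of reads with either start was 0.820% in replicate 1 (0.542% to 1.24%, Wilson 95% interval) and 2.26% in replicate 2 (1.52% to 3.34%), which averaged 1.54% ± 1.02 (SD, n = 2). The starts thus differed in how their levels compared between the libraries. The CPM of replicate 1 over replicate 2 was 0.830-fold for Golli starts (exact 95% interval 0.444 to 1.55) and 2.32-fold for classic starts (2.17 to 2.50). The odds of a Golli over a classic start in replicate 1 were 0.357 times those in replicate 2 (exact conditional 95% interval 0.190 to 0.669). This comparison was chosen after its values were seen, and no p is given. The Golli starts counted here include models that began after the annotated Golli first exon. That exon opened 20 reads in replicate 1 and 18 reads in replicate 2.

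Most Golli reads belonged to models that ended in the intron after classic exon 1 and held none of classic exons 2 to 7. Mbp-205 runs through the Golli exons into classic exon 1 and its downstream intron, ends at 82558703, and encodes 195 residues. It had 15 reads in replicate 1 and 14 reads in replicate 2. Counting every model with this end, 16 of the 22 upstream-start reads of replicate 1 and 22 of the 24 of replicate 2 ended there. Mbp-201, the longer Golli chain that continues through exons 3, 4 and 7 and encodes 250 residues (27.2 kDa), had 4 reads in replicate 1 and 1 read in replicate 2. With new models added, 5 Golli reads of replicate 1 and 2 of replicate 2 ended in exon 7, and these held classic exons 3 and 4 and lacked exons 2, 5 and 6 in both libraries. Among spliced reads with a classic start, 0 in either library used the Golli end.

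The Golli reads also held the gene's alternative upstream structures. The annotated first exon opened 20 reads of replicate 1 and 18 reads of replicate 2, and 19 and 18 reads were full length by the definition above. A first exon that ends at 82476132, which is 738 bases past the annotated donor site, opened 1 read in each library, and the chains then differed. A 60-base exon at 82493652 to 82493711 was seen in 1 read of replicate 2. An exon ending at 82523069 opened another read of replicate 2. A model without internal exons that covered 82554320 to 82558703 accounted for 3 of the upstream-start reads of replicate 2 and 0 in replicate 1. With Mbp-205 at 4797 bases, against 1922 bases for Mbp-211, length differed between the starts. The median model length per read was 2252 bases in replicate 1 and 2210 bases in replicate 2, and the part of transcript length in the Golli share was not tested.

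Each classic exon was then scored over all spliced Mbp reads that could tell its state, as held where the model has it and skipped where an intron spans it. Genomic models, among them a 2-exon model of 4 reads in replicate 1 and 1 read in replicate 2 whose intron spans exons 2 to 6, were left out. Exon 2 was held in 689 of 2665 reads in replicate 1 (25.9%, Wilson 95% interval 24.2% to 27.5%) and 275 of 1042 reads in replicate 2 (26.4%, 23.8% to 29.2%). Exon 6 was held in 826 of 2686 reads in replicate 1 (30.8%, 29.0% to 32.5%) and 350 of 1054 reads in replicate 2 (33.2%, 30.4% to 36.1%). Exons 3 and 4 were close to constitutive. Among the reads so scored, exon 3 was held in all 2676 and 1047, and exon 4 in 2672 of 2674 reads of replicate 1 and all 1049 reads of replicate 2.

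Exon 5 was held in 2553 of 2684 reads in replicate 1 (95.1%, 94.2% to 95.9%) and 964 of 1053 reads in replicate 2 (91.5%, 89.7% to 93.1%), the long form included. All variable exons of the libraries, 2281 in 1340 genes, were compared together by Fisher's exact test with Benjamini-Hochberg adjustment, and 0.0438% of them were called. The 3 Mbp exons were not among them. For exon 5 in its exact annotated form the inclusion was 95.1% in replicate 1 and 91.5% in replicate 2 (2537 of 2668 and 958 of 1047 reads), with an adjusted Fisher p of 0.0616. With a minimum of 50 reads in each library in place of 20, an alternative chosen after seeing the data that left 847 exons, the adjusted Fisher p for exon 5 was 0.0229 and the exon was called. The adjusted Fisher p was 1 for exon 2 and for exon 6.

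**Figure D3:**
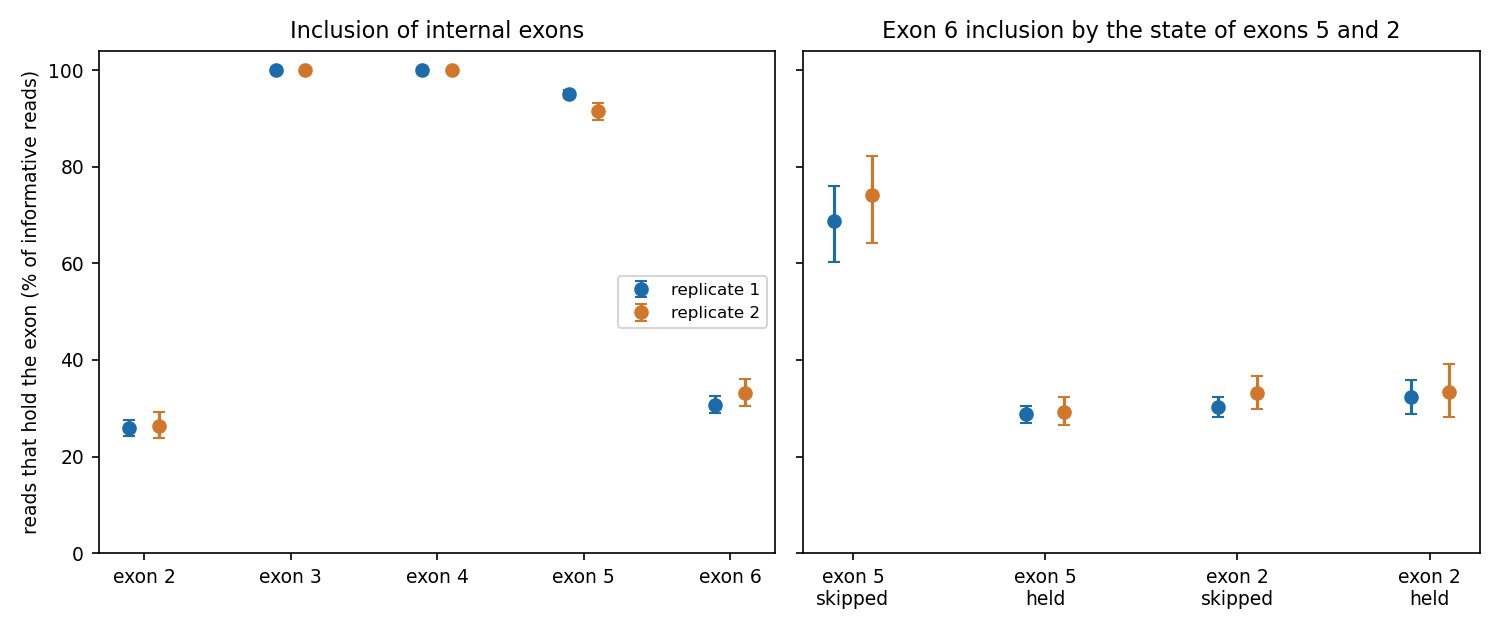
Left, share of informative reads that hold classic exons 2 to 6, in percent, in replicate 1 (blue) and replicate 2 (orange). Right, share that holds exon 6 among reads with exon 5 skipped or held and exon 2 skipped or held; bars are Wilson 95% intervals, and the share is 68.7% and 74.2% with exon 5 skipped, against 28.8% and 29.3% with exon 5 held.

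Long reads show which exons lie in the same molecule. All 8 combinations of exons 2, 5 and 6 were found in both libraries among the 2652 reads of replicate 1 and 1035 reads of replicate 2 that ran from classic exon 1 to exon 7, genomic models again left out. The leading combination, exon 5 alone of these exons, held 1343 reads in replicate 1 (50.6%, Wilson 95% interval 48.7% to 52.5%) and 493 reads in replicate 2 (47.6%, 44.6% to 50.7%). Exons 5 and 6 together made up 529 reads (19.9%) and 196 reads (18.9%). Exons 2 and 5 together made up 457 reads (17.2%) and 177 reads (17.1%). All of exons 2, 5 and 6 were held by 198 reads (7.47%) and 83 reads (8.02%). The order of these 4 combinations was the same in the libraries, and their sum was 95.3% of combinations in replicate 1 and 91.7% in replicate 2.

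The combinations without exon 5 followed. Exon 6 alone was held by 68 reads in replicate 1 (2.56%, 2.03% to 3.24%) and 58 reads in replicate 2 (5.60%, 4.36% to 7.18%). None of exons 2, 5 and 6 was held by 30 reads (1.13%) and 17 reads (1.64%). Exons 2 and 6 were held together by 22 reads (0.830%) and 8 reads (0.773%). Exon 2 alone was the rarest combination, with 5 reads in replicate 1 and 3 reads in replicate 2.

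Exons 5 and 6 were unevenly paired within molecules. Exon 6 was held in 90 of the 131 reads of replicate 1 that skipped exon 5 (68.7%, Wilson 95% interval 60.3% to 76.0%) and in 66 of the 89 such reads of replicate 2 (74.2%, 64.2% to 82.1%). Among reads that held exon 5, exon 6 was held in 734 of 2553 reads of replicate 1 (28.8%, 27.0% to 30.5%) and 282 of 963 reads of replicate 2 (29.3%, 26.5% to 32.2%). The intervals of the skipped and held classes did not overlap in either library. The odds of holding exon 6 with exon 5 held were 0.184 times those with exon 5 skipped in replicate 1 (exact conditional 95% interval 0.123 to 0.272) and 0.145 times in replicate 2 (0.0841 to 0.241). Reads of a library share their source and their amplification, so these intervals describe the reads and are no test across animals.

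For exons 2 and 6 the interval of the odds ratio included 1 in both libraries. Exon 6 was held in 32.3% of the reads with exon 2 in replicate 1 and 33.5% in replicate 2, against 30.2% and 33.2% of the reads without exon 2. Over the summed reads the odds ratio was 1.07 (exact conditional 95% interval 0.915 to 1.26), with 1.10 (0.908 to 1.33) in replicate 1 and 1.01 (0.747 to 1.37) in replicate 2. For exons 2 and 5 the odds ratio over the summed reads was 1.71 (1.19 to 2.52). In replicate 1 alone it was 1.35 (0.865 to 2.16), an interval that includes 1, and in replicate 2 alone it was 2.68 (1.39 to 5.67).

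In these reads the ratio between the libraries varied over the combinations, a description without a test of its own. The 4 combinations that hold exon 5 were between 2.16-fold and 2.47-fold higher in replicate 1, and their sum was 3077 CPM in replicate 1 and 1276 CPM in replicate 2, a ratio of 2.41 (exact 95% interval 2.24 to 2.61). The 4 without exon 5 summed to 152 CPM in replicate 1 and 116 CPM in replicate 2, a ratio of 1.32 (0.992 to 1.75). Within them, exon 6 alone had 82.8 CPM in replicate 1 and 78.0 CPM in replicate 2, a ratio of 1.06 (0.737 to 1.53), while exons 2 and 6 together had a ratio of 2.49 (1.07 to 6.47) on 22 and 8 reads. Split by exon 2, the ratio was 2.28 (1.98 to 2.63) for combinations with it and 2.34 (2.15 to 2.55) for those without it. Isoform shares were compared over all genes for which each library held 20 or more reads of annotated or new models, and 0.236% of 4660 genes were called. Mbp did not pass (2673 reads of replicate 1 and 1056 reads of replicate 2 over 9 isoform classes, simulated chi-square test, adjusted p = 0.0777). Its unadjusted p in this test was 0.00019998, close to 9.999e-05, the smallest value that 10000 simulated tables allow. The result thus depends on the number of tables, and whether Mbp would pass with more of them was not tested.

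**Figure D4:**
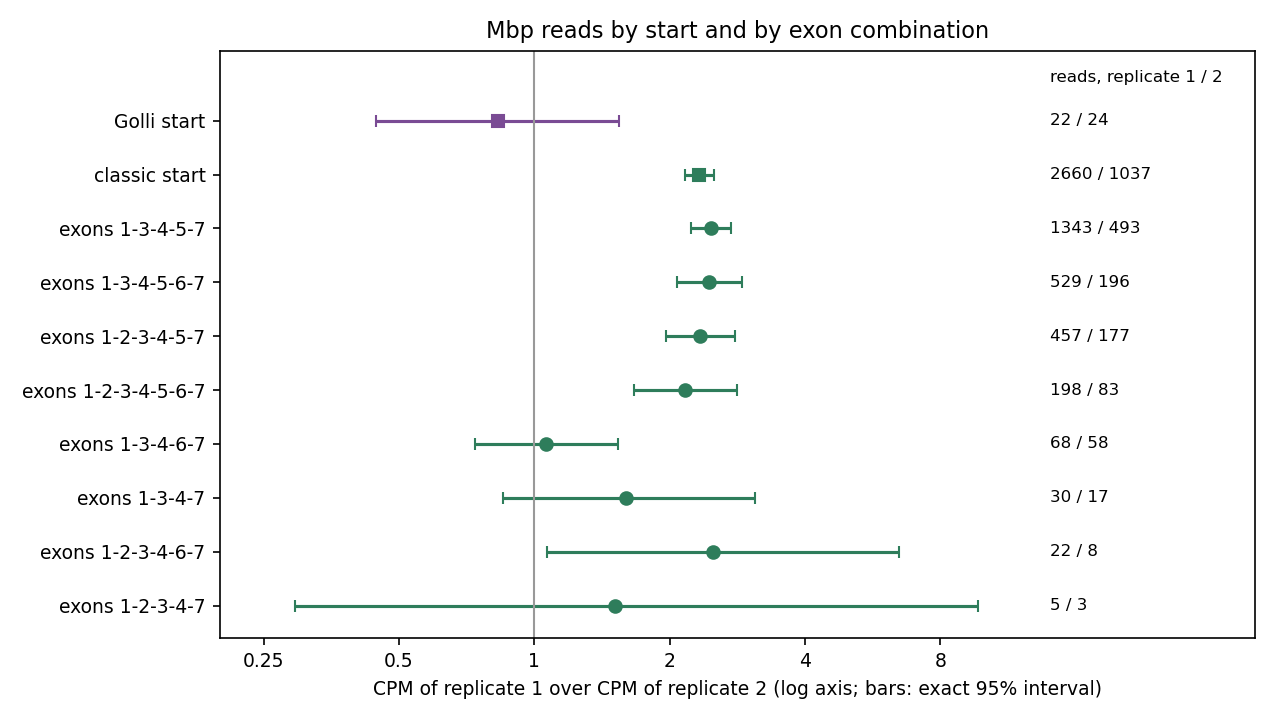
Ratio of CPM in replicate 1 over replicate 2 on a log axis for Golli and classic starts (squares) and for the 8 combinations of classic exons (circles), with exact 95% intervals and the reads of both libraries at the right. Classic starts and the 4 combinations with exon 5 lie between 2.16 and 2.47, whereas Golli starts lie at 0.830 and exons 1-3-4-6-7 at 1.06.

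Start and end sites were limited by how models are written. All 25 annotated models with reads, over both libraries, carried exactly the exon positions of GENCODE M21, so their starts and ends are those of the catalogue and not of the reads. This matters for Mbp-209, whose catalogued end at 82584156 lies at the start of exon 7. The 11 annotated classic transcripts have 7 distinct starts within 110 bases, and 7 of the 14 annotated transcripts that end in exon 7 end in its last 12 bases, from 82585626 to 82585637. Of the models outside the catalogue, 27 of 38 in replicate 1 and 17 of 31 in replicate 2 began at an annotated start. In replicate 1 all 26 with a classic start began at an annotated start, and in replicate 2 all 14 did. The start at 82554530 was used by 19 and 9 of these models, and the start at 82554516 by 4 models and 1 model. All 33 such models of replicate 1 that ended in exon 7, and all 24 of replicate 2, ended at an annotated end, most often at 82585627 (26 models and 13 models). Most incomplete matches began at the exact first base of an annotated exon, such as 82561778 and 82572825. The outer ends of models outside the catalogue may thus be written from it as well, and their agreement with annotated sites does not show where reads start or end. Early ends within the intron after exon 3, at 82573679, or after exon 4, at 82577312, were seen in 2 reads of replicate 1 and 1 read of replicate 2.

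A large class of Mbp reads had no splice junction. A single-exon model held 366 reads (446 CPM) in replicate 1, where it ran from 82581481 to 82585627, and 177 reads (238 CPM) in replicate 2, where it ran from 82582179 to 82585627. It covers the end of the last intron and all but the last bases of exon 7, and made up 11.9% of Mbp reads in replicate 1 (10.8% to 13.1%, Wilson 95% interval) and 14.1% in replicate 2 (12.3% to 16.1%). Its class, genomic models, held 12.1% and 14.2% of Mbp reads, against 6.49% and 7.82% of the reads of all known genes. The bounds are given once for all reads of the model, so how many of them reach into the intron is unknown. With models of a single exon left out, an alternative chosen after seeing the data, Mbp had 3298 CPM in replicate 1 and 1445 CPM in replicate 2 (log2 ratio 1.19 with an adjusted Fisher p of 9.35e-124).

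Incomplete matches were few and mostly began at an internal exon and ran to the end. They held 32 reads in replicate 1 and 21 reads in replicate 2. The chain of exons 5 and 7 had 8 and 4 reads, exons 3, 4, 5 and 7 had 7 and 3, and exons 2, 3, 4, 5 and 7 had 4 and 3. The chain of exons 3 to 7 had 3 reads in replicate 1 and 1 read in replicate 2, and exons 6 and 7 had 2 reads in each.

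New structures were rare, and few were shared. Of 36 intron chains that were new combinations of known sites or held a new site, 28 had a single read, and 6 were found in both libraries, with 13 of 34 such reads in replicate 1 and 6 of 18 in replicate 2. Splice junctions outside the catalogue made up 0.329% of the junctions in Mbp reads of replicate 1 and 0.439% in replicate 2. Of the 18 annotated junctions, 14 were found, all of them in both libraries.

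The shared new chain with the most reads, 6 in replicate 1 and 1 in replicate 2, joined exons 1, 3 and 4 to exon 7 with exon 4 extended by 20 bases to 82575227. Over all models that donor site was used in 8 reads of replicate 1 and 1 read of replicate 2, and none of them held exon 5. The extended exon has 56 bases, which is no multiple of 3. A donor 4 bases past the end of exon 5, at 82575637, was used in 5 and 3 reads, and an acceptor 4 bases into exon 7, at 82584116, in 3 and 5 reads. A donor 4 bases past the end of exon 3, at 82572930, was used in 1 and 2 reads. These account for 4 more of the shared chains, with 2 to 3 reads each over both libraries.

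The remaining shared chain held a new internal exon. It lies between exons 2 and 3, at 82564949 to 82565074, overlaps no annotated Mbp exon, and has 126 bases, a multiple of 3. It was found in 2 reads of replicate 1 and 1 read of replicate 2, each time together with exon 2. Within exon 7, an intron of 143 bases from 82584475 to 82584617 was removed in 5 reads of replicate 1 and 0 of replicate 2, while 1 read of replicate 2 used the same acceptor with a donor that left an intron of 196 bases. A genomic model joined the first bases of exon 1, 82554530 to 82554558, to exon 7 from 82584571, and held 4 reads in replicate 1 and 1 read in replicate 2. On the opposite strand of the locus, 1 read was found in replicate 1 and 0 in replicate 2.

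Genes of compact myelin and oligodendrocytes, listed from general knowledge, were set beside Mbp. Of 12 listed genes, 9 had the 20 reads over both libraries that the test needed, 5 of these were called higher in replicate 1 and 0 lower, and 4 did not pass, against 0.834% of all genes called higher. Their median log2 ratio was 1.13, against -0.01 over all 8875 genes tested. Cnp, which encodes a phosphodiesterase of oligodendrocyte membranes, had 823 reads in replicate 1, against 462 in replicate 2 (log2 ratio 0.69 with an adjusted Fisher p of 4.50e-14). Mobp, a small basic protein of compact myelin, had 162 and 55 reads, Mag, the myelin-associated glycoprotein, 107 and 36, and Mal, a membrane protein of myelin, 50 and 17 (log2 ratios 1.41, 1.42 and 1.39). Ugt8a and Fa2h, enzymes of myelin lipid synthesis, had 78 and 40 reads and 20 and 8 reads and did not pass (adjusted Fisher p = 0.138 and 0.510). Opalin and Plekhb1 did not pass either, at 16 and 6 reads and 34 and 19 reads. Mog (4 and 2 reads), Cldn11 (8 and 5) and Ermn (13 and 2) had too few reads for the test. The summed level of the list was 2228 CPM in replicate 1 and 1299 CPM in replicate 2, so it was higher in the same library as Mbp, and its part in the Mbp difference was not tested.

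Genes known to act on the Mbp gene or its RNA were set beside it in the same way. Of 18 listed genes 16 were tested, 0 were called higher in replicate 1 and 1 was called lower, against 1.58% of all genes called in either direction, and the median log2 ratio was -0.00. The gene called was Hnrnpa2b1, whose protein binds the transport element of Mbp mRNA, with 427 reads in replicate 1 against 488 in replicate 2 (log2 ratio -0.34 with an adjusted Fisher p of 0.0362). Qk, which encodes quaking proteins that bind and stabilise Mbp mRNA, had 172 and 177 reads (log2 ratio -0.18 with an adjusted Fisher p of 0.799). Of the transcription factors, Sox10 had 50 and 38 reads and Olig2 had 100 and 87 (log2 ratios 0.25 and 0.06, adjusted Fisher p = 0.913 and 1). Myrf, which drives myelin genes, had 15 and 3 reads and Nkx2-2 had 6 and 2, and both were under the minimum of the test. Fyn, a kinase upstream of local Mbp translation, had 334 and 289 reads (log2 ratio 0.07 with an adjusted Fisher p of 0.948).

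**Figure D5:**
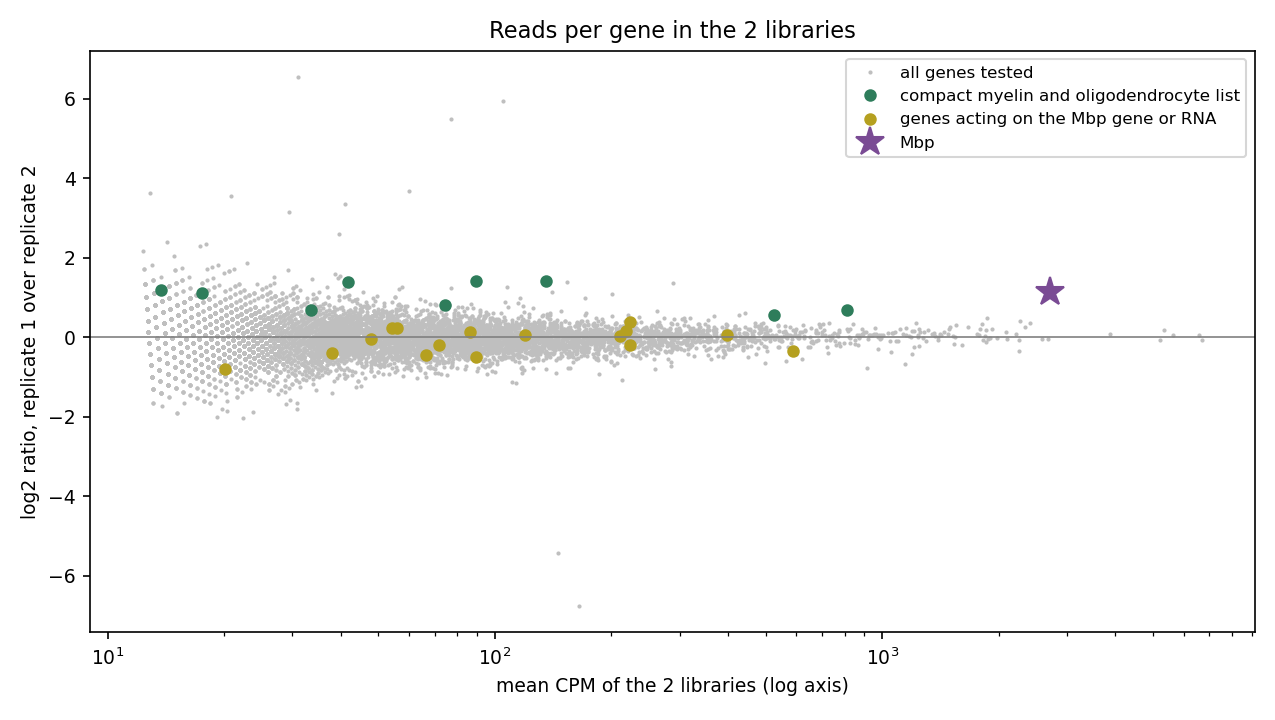
Log2 ratio of replicate 1 over replicate 2 against mean CPM (log axis) for all 8875 genes tested (grey), the myelin and oligodendrocyte list (green), the genes that act on Mbp (ochre) and Mbp (star). Mbp lies at 1.15, the 9 tested myelin genes lie above 0, and the 16 tested genes that act on Mbp have a median of -0.00.

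Other marker lists were checked for reads, which does not by itself place the sample or its cells. All 12 markers of hippocampal neurons had reads, with a summed level of 1951 CPM in replicate 1 and 2191 CPM in replicate 2, and 1 of the 12, Ccn3, was called lower in replicate 1, against 1.58% of all genes called in either direction (265 and 338 reads, log2 ratio -0.49, adjusted Fisher p = 0.00439). Markers of oligodendrocyte precursors summed to 285 CPM and 258 CPM, and 0 of the 5 tested were called, a count too small to set against 1.58% of all genes. Their directions were mixed. Of the 5 tested, 3 had log2 ratios above 0, the largest for Bcas1 (72 and 36 reads, 0.85), and the others lay below 0. Of the Schwann cell genes, which mark peripheral nerve, Prx had 0 reads in both libraries, and Pmp22, which other cells also express, had 45 and 42 reads.

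Of the genes with at least 200 reads, the 5 whose log2 ratio was nearest to that of Mbp were Ttr (1.14), Ptgds (1.10), Tsc22d3 (0.98), Gsn (1.38) and Enpp2 (1.39). This likeness rests on 2 libraries only. Ttr, which encodes transthyretin, had 159 reads in replicate 1 against 65 in replicate 2, while Ptgds, which encodes a prostaglandin D synthase, had 225 and 95 reads. By the size of this ratio Mbp was the 4th of the 1525 genes with at least 200 reads.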

How the data were processed

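The deposited tables hold raw read counts per transcript model, per the file headers and the values, with the class, number of exons and length of each model. Exon positions came from the deposited annotations, on mm10 with GENCODE M21 per the text deposited beside them. For the aligner and the transcript caller, names and versions were not given in the sources used here. CPM is reads over mouse reads, without ERCC controls, times 1000000. Log2 ratios add 0.5 reads to each count. Replicate 1 held 832263 reads and replicate 2 held 753385. Fisher's exact tests, and chi-square tests with 10000 simulated tables (R 4.3.3), were run over every gene with 20 or more summed reads (isoforms and exons, 20 in each library), adjusted by Benjamini-Hochberg at a threshold of 0.05, and checked on simulated data. Isoforms under 10 reads were summed. Variable exons had a mean inclusion of 5% to 95%. Intervals and odds ratios used scipy, and TMM library sizes came from edgeR 4.0.16, as an alternative. New models were matched between libraries by their intron chain. Named were annotated transcripts with at least 1% of Mbp reads in either library and, beyond that rule, all others with reads; new chains found in both libraries; the 5 largest incomplete chains; and the 5 genes nearest in ratio. Other structures with few reads were chosen after their values were seen. The members and gene lists were chosen with earlier results of these data known. Values of 2 listed genes are not reported here.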

Additional observations from a re-analysis of the deposited data

How the results depend on the processing

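Of 68 alternative values, 0 reversed, and 60 kept their call, a count within 1.5 times or, for values without a test, stayed within 1 SD of the 2 libraries, which is wide for the Golli share and for Mbp CPM (1687 to 3746 with a library left out). For shares and CPM, a value with 1 library left out always lies within 1 SD of the mean of 2 libraries. Those alternatives could not have moved and are no check. Mbp was called higher in replicate 1 under every scaling and filter run, with log2 ratios of 1.15 to 1.20. The number of genes called between the libraries was 73 with annotated transcripts alone and 79 with single-exon models left out, against 140. By the simulated chi-square or Fisher's test, 0 of 2592 genes had isoform shares called with annotated transcripts alone (102 at an unadjusted p under 0.05), against 11. The adjusted chi-square p for Mbp was 0.0518 there and 0.0525 with a minimum of 50 reads. With 10000 simulated tables the unadjusted chi-square p cannot fall below 9.999e-05, the value Mbp had with annotated transcripts alone. After adjustment, whether a gene at this floor passes depends on how many genes reach it. The same floor held where 11 genes were called, and genes with 2 isoforms, tested by Fisher's test, have no such floor. Whether the fall from 11 to 0 comes from the floor or from this setting was not tested. Variable exons called numbered 2 with a minimum of 50 reads, against 1, and Mbp exon 5 was the Mbp exon called. Leaving out each library in turn gave odds ratios of exons 2 and 6 of 1.01 to 1.10, of exons 2 and 5 of 1.35 to 2.68, and a Golli share of 0.820% to 2.26%. The odds ratio of exons 5 and 6 was 0.132 with annotated transcripts alone, against 0.167. The alternatives for the pairs with exon 5 were chosen after seeing the data. The cause of these shifts was not tested. With 22 and 24 Golli reads, depth limits every statement on Golli chains. No paired analysis was possible because the study holds a single group.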
